A study of Mus musculus with 20 samples.

Results

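The genes described here are 10 dendritic cell genes, *Itgax*, *Flt3*, *Zbtb46*, *Xcr1*, *Clec9a*, *Cd209a*, *Siglech*, *Batf3*, *Ccr7* and *Clec10a*, measured by RNA sequencing in monocyte-derived macrophages (MoMac) of fibrotic mouse liver. They were selected by gene symbol, and each was found once among the 59311 annotated genes. Earlier results of these data were known when they were selected: *Itgax*, which encodes the integrin chain CD11c, had been seen to be far higher in Ly6Clo than in Ly6Chi MoMac although both were sorted as CD11c negative. Differences between the subsets are therefore given for these 10 genes as a description, without a test, whereas their changes with treatment are tested. Male C57BL/6J mice aged 10 to 12 weeks received CCl4, a hepatotoxin that causes liver fibrosis, at 0.6 ml/kg for 4 weeks. Mice 16 to 20 were given Ac-6-FP at 0.25 mg/kg, a synthetic folate derivative that binds the antigen-presenting molecule MR1 and prevents activation of mucosal-associated invariant T (MAIT) cells. Mice 11 to 15 were given vehicle (DMSO in PBS). Both were injected before the last CCl4 injection and daily during the 2 days that followed. From each liver, about 30000 cells of each subset were sorted as CD11b+ F4/80+ cells that lacked Ly6G, CD11c and CD3, and were then divided by their Ly6C level, which gave 5 Ly6Chi and 5 Ly6Clo libraries per treatment. All 4 groups thus carry CCl4 injury, and mice without injury were not analysed here.

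Dendritic cells are the antigen-presenting cells that take up material in tissues and carry it to lymph nodes, where they prime T cells. Conventional dendritic cells (cDC) arise from bone marrow precursors that need the cytokine receptor FLT3, and mature as cDC1, specialised in cross-presentation to CD8 T cells, or cDC2, which mainly present to CD4 T cells. Plasmacytoid dendritic cells (pDC) are a separate type known for interferon production, and monocytes can take on dendritic cell features in inflamed tissue. CD11c is the surface marker most often used to sort dendritic cells, but it is also found on NK cells and on Ly6C-low monocytes.

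Values are normalized counts, which are read counts per gene divided by 1 size factor per library. They are not divided by gene length, so that levels are compared between libraries and not between genes. Each library held between 10597576 and 18682437 reads on genes in Ly6Chi and between 5693049 and 15938434 in Ly6Clo MoMac. The Ly6Clo vehicle library of mouse 13 stood apart, with 5343 genes detected and 2765 of the 6652 genes with a median of at least 100 listed at 0. Values without this library are given beside the results that it moved most. A value of 0 allows up to 3 reads, counting error only, which is on average 2.64 normalized counts in a Ly6Chi library.

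*Itgax* was listed at 0 in all 10 Ly6Chi libraries and was present in 9 of the 10 Ly6Clo libraries. The vehicle Ly6Clo libraries of mice 11 to 15 held 1952, 0, 809.8, 1407 and 1609 normalized counts of *Itgax*. Ly6Clo libraries of the Ac-6-FP mice 16 to 20 held 1228, 3302, 1038, 2055 and 3003. The level was high wherever the gene was detected, from 388 reads in mouse 13 to 3237 reads in mouse 20, and the single Ly6Clo library without it was that of vehicle mouse 12. The Ly6Clo mean of *Itgax*, 1640.3 ± 992 (SD, n = 10), was 622-fold above the limit of 3 reads per Ly6Chi library. This compares means and allows for counting error only, and in mouse 12 both subsets were at 0. Of the 17248 genes tested, 39 (0.226%) were likewise at 0 in every Ly6Chi library and above 0 in at least 9 Ly6Clo libraries, and *Itgax* took place 5 among these by its Ly6Clo mean. In the Ly6Clo library of mouse 12, 3 of 1347 genes with a Ly6Clo mean between 1000 and 3000 were at 0, *Itgax* among them.

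*Itgax* lies on chromosome 7 at 128129546 to 128150657 in the mm10 build. The bases that precede its start, and those that precede *Cd209a* (chromosome 8, 3743395 to 3748984), are printed because *Itgax* was absent from 1 subset, the libraries of *Cd209a* did not overlap between the subsets, and both have a RefSeq start within 10 bases of that in the deposited table. The starts are equal for *Cd209a*, whereas the last bases printed for *Itgax* lie inside the gene as the deposited table places it. The stretches are 150 bases each, from RefSeq on GRCm38.p6, at chr7:128129400-128129549 on the plus strand and chr8:3748985-3749134 on the minus strand. Capitals mark the motif TGANTCA, which AP-1 and BATF family factors bind.
Itgax: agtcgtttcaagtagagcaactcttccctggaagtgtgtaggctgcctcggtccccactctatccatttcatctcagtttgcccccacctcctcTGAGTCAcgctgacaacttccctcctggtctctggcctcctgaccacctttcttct
Cd209a: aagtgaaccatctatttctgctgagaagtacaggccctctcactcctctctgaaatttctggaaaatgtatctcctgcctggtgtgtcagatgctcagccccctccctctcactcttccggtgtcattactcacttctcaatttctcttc

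Of the 10 genes, 8 had a RefSeq promoter entry, and in 6 of these the RefSeq start lay within 10 bases of the start in the deposited table. From 250 bases before to 50 bases after the start in these 6, searched on both strands, TGANTCA (which reads the same on both) occurred in 1, that of *Itgax*, and it occurs in 7.79% of the 32544 promoters of the same length. The PU.1 core GAGGAA occurred in 1, that of *Siglech*, against 28.1% of all promoters.

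*Cd209a* and *Ccr7* were the only members whose libraries did not overlap between the subsets. *Cd209a*, which encodes a C-type lectin found on cDC2 and monocyte-derived dendritic cells, ranged from 0 to 535 normalized counts in Ly6Chi MoMac, and was listed at 0 in mice 12 and 18. Its Ly6Clo levels were 12338.5, 19143, 16993, 15731 and 8819.8 in vehicle mice 11 to 15. In Ac-6-FP mice 16 to 20 they were 15053, 10695, 9754, 5805 and 4369. The Ly6Chi mean was 1.58% of the Ly6Clo mean, and the share in single mice did not exceed 6.07%. *Cd209a* has related copies in the genome, and whether reads were shared between them was not tested. *Cd209d*, a related gene counted separately, had a mean of 199 ± 159 (SD, n = 10) in Ly6Clo and 34.5 ± 47.6 (SD, n = 10) in Ly6Chi MoMac.

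*Ccr7* encodes the chemokine receptor by which mature dendritic cells migrate to lymph nodes. It was above 0 in 3 of 10 Ly6Chi libraries, at 35.4, 2.14 and 9.82 normalized counts in mice 11, 12 and 17. In Ly6Clo MoMac it reached 6839.7, 2425, 1407, 733 and 1709 in vehicle mice 11 to 15. The Ac-6-FP mice 16 to 20 had 4158, 654, 10438, 546 and 2629.7 normalized counts of *Ccr7* in this subset. Relative to the mean, levels of *Ccr7* spread more widely between Ly6Clo libraries (mean 3154 ± 3206, SD, n = 10, coefficient of variation 1.02) than those of *Cd209a* (mean 11870.2 ± 4860.3, SD, n = 10, coefficient of variation 0.409), and mice 11 and 18 were far above the others. Among all genes tested, 0.974% had Ly6Clo libraries that were all above every Ly6Chi library. The plot of the 10 genes by mouse shows both patterns.

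**Figure D1:**
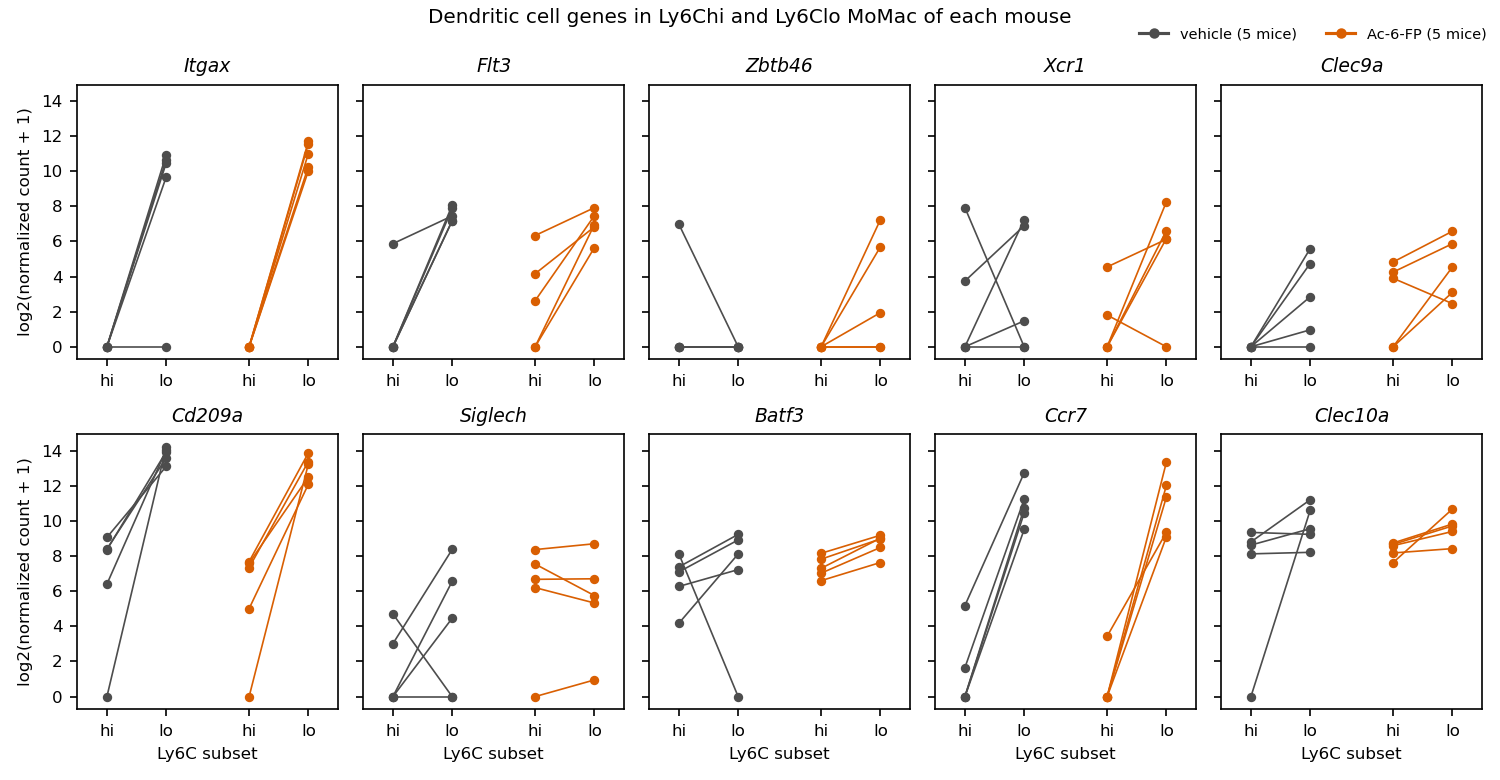
Normalized counts of the 10 genes in Ly6Chi (hi) and Ly6Clo (lo) MoMac on a log2(normalized count + 1) axis, with a line joining the libraries of each mouse, vehicle in grey and Ac-6-FP in orange. *Itgax* is at 0 in all 10 Ly6Chi libraries, *Cd209a* and *Ccr7* are higher in Ly6Clo MoMac in 10 of 10 mice without overlap, and *Zbtb46* is at 0 in most libraries.

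*Flt3*, the receptor for the growth factor of dendritic cell precursors, had a mean of 166 ± 66.4 (SD, n = 10) in Ly6Clo MoMac. Its Ly6Chi mean was 15.9 ± 28.8 (SD, n = 10), and the ratio of the means was 10.4. It was above 0 in 4 Ly6Chi libraries, at 57.5, 16.9, 5.16 and 79.7 normalized counts in mice 11, 16, 19 and 20. All 10 Ly6Clo libraries contained it, between 49.0 in mouse 18 and 265 in mouse 13. Within each mouse *Flt3* was higher in Ly6Clo MoMac (10 of 10), as were *Cd209a* and *Ccr7*, while 1.98% of all genes tested were higher in Ly6Clo MoMac in all 10 mice. Libraries of the subsets overlapped, since the Ly6Chi libraries of mice 11 and 20 exceeded the lowest Ly6Clo library. An unnamed annotated gene overlaps the start of *Flt3* and was much lower, with a mean of 4.78 in Ly6Clo MoMac, and the counting of reads by strand is not given in the sources used here.

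*Batf3* and *Clec10a* were present in both subsets. *Batf3* encodes a transcription factor needed for cDC1 development. Its Ly6Chi levels were 166, 17.1, 277, 76.4 and 136 normalized counts in mice 11 to 15 and 226, 157, 285, 96.25 and 129.7 in mice 16 to 20. The Ly6Clo levels were 602, 278, 0, 149 and 484 in mice 11 to 15 and 503, 518, 582, 198 and 359 in mice 16 to 20. *Batf3* was higher in Ly6Clo MoMac in 9 of 10 mice, the exception being mouse 13, whose Ly6Clo library held none. The mean log2 difference between the subsets, Ly6Clo minus Ly6Chi, was 0.68 ± 3.21 (SD, n = 10), 1.66 without mouse 13 and 0.32 without mouse 12, so that its size rested on single mice.

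*Clec10a* encodes a galactose-binding lectin of cDC2 and macrophages. Ly6Chi libraries held 447, 0, 279, 652 and 395 normalized counts in mice 11 to 15 and 197, 429, 406, 386 and 289 in mice 16 to 20. Ly6Clo libraries held 2364, 1559.8, 296, 604 and 753 in mice 11 to 15 and 1639, 907, 842, 676 and 343 in mice 16 to 20. The gene was higher in Ly6Clo MoMac in 9 mice and lower in mouse 14, and the libraries overlapped. The mean log2 difference was 2.01 ± 3.18 (SD, n = 10), and 1.06 without mouse 12, in which the Ly6Chi library had none.

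The markers that separate cDC1, cDC and pDC from other myeloid cells were low and irregular. *Xcr1*, the cDC1 chemokine receptor, was above 3 reads in 4 of 10 Ly6Chi and 6 of 10 Ly6Clo libraries, and its highest values were 242 in the Ly6Chi library of mouse 12 and 304 in the Ly6Clo library of mouse 18. *Clec9a*, a cDC1 receptor for dead cells, did not exceed 27.4 normalized counts in Ly6Chi and 94.4 in Ly6Clo MoMac. *Siglech*, a pDC lectin, reached 330 in the Ly6Chi and 416 in the Ly6Clo library of mouse 18, and was at 0 in 4 Ly6Chi and 2 Ly6Clo libraries. *Zbtb46*, a transcription factor that distinguishes cDC from monocytes, was listed at 0 in 9 Ly6Chi and 7 Ly6Clo libraries. The 4 libraries with *Zbtb46* held 125 in Ly6Chi MoMac of mouse 14 and 2.84, 149 and 50.5 in Ly6Clo MoMac of mice 16, 18 and 19. Unnamed annotated genes overlap *Zbtb46*, 1 of them with a mean of 8.91 and up to 59.8 normalized counts in Ly6Clo MoMac against a mean of 20.3 for *Zbtb46*, so that without known strand their reads cannot be told apart. The unnamed gene that overlaps *Clec9a* was at 0 in all libraries. All 10 genes had a higher mean in Ly6Clo MoMac, but for *Siglech* and *Zbtb46* the ratio of the means was only 1.47 and 1.63. In whole populations of sorted cells, fewer cells of a type and less RNA per cell cannot be told apart.

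The genes of other dendritic cell lists were compared between the subsets with limma on the within-mouse difference, a test that 593 of 17248 genes (3.44%) passed with a higher and 303 (1.76%) with a lower level in Ly6Clo MoMac (adjusted p under 0.05, n = 10 mice). Antigen presentation genes were higher in 9 of 12. *Cd74*, the invariant chain of MHC class II, had a mean of 289329 in Ly6Clo and 9119 in Ly6Chi MoMac, with a log2 difference of 5.02 (adjusted p = 1.37e-08, limma). *H2-Ab1*, an MHC class II chain, differed by 5.88 on the log2 scale (adjusted p = 2.05e-09, limma). The exceptions were *Ciita*, the regulator of MHC class II genes, *Dpp4* and *Plbd1*. The median log2 difference of this list was 4.70, against 0.03 for all genes tested.

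Activation and migration genes were higher in 8 of 16, with a median log2 difference of 4.23. *Cd83*, a surface protein of mature dendritic cells, had 3417 ± 1219 (SD, n = 10) normalized counts in Ly6Clo and 254 ± 247 (SD, n = 10) in Ly6Chi MoMac. The chemokines *Ccl22* (809 against 7.75) and *Ccl17* (147 against 0), the actin-bundling protein *Fscn1* (173 against 0) and *Apol7c* (491 against 0) passed as well, as did *Traf1*, *Tnfrsf9* and *Ccl5*, the last of which is also made by NK and T cells. The count test of edgeR on the same reads placed 3 genes of this list past the threshold. *Cd86* (1067 against 871), *Cd40* (245 against 291) and *Relb* (54.7 against 42.8) were among the 8 that did not pass.

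Of the cDC2 and monocyte-derived dendritic cell genes, 5 of 13 were higher in Ly6Clo MoMac, namely *Mgl2*, a lectin related to *Clec10a* (746 against 12.7), *Kmo*, an enzyme of tryptophan breakdown (581 against 107), *Ear2*, *Ltb* and *Cd209d*, whereas edgeR placed 2 genes of this list past the threshold. Of the cDC1 genes, 2 of 11 were higher, *Id2*, an inhibitor of transcription factors (5625 against 1785), and *Clnk*, an adaptor protein (102 against 0), and 1 was lower, *Naaa*, a lipid amidase (979 against 2271), with 1 higher by edgeR. *Irf8*, the transcription factor of cDC1 and monocytes, had means of 790 in Ly6Clo and 814 in Ly6Chi MoMac. Of 10 pDC genes tested, *Ly6d* (369 against 93.2) was higher, and *Tcf4*, the transcription factor of pDC, had means of 547 in Ly6Clo and 789 in Ly6Chi MoMac. The call of *Ly6d* was lost with edgeR, with a pseudocount of 0.1, without a filter, without pairing by mouse and without any 1 of mice 11, 12, 14, 15, 17 and 20, where 0 pDC genes were higher. With genes detected as a covariate, 1 pDC gene was higher and 3 were lower. Median log2 differences of these lists were 1.53, 1.43 and 0.25. The plot of the related lists shows the calls by list, and without the Ly6Clo library of mouse 13 the numbers higher were 10, 8, 5, 3 and 1 for presentation, activation, cDC2, cDC1 and pDC genes. The number of cDC2 genes higher was less stable, at 2 without mouse 12, 15, 19 or 20, and at 3 without mouse 11, 16, 17 or 18, with a pseudocount of 0.1 or without a filter.

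**Figure D2:**
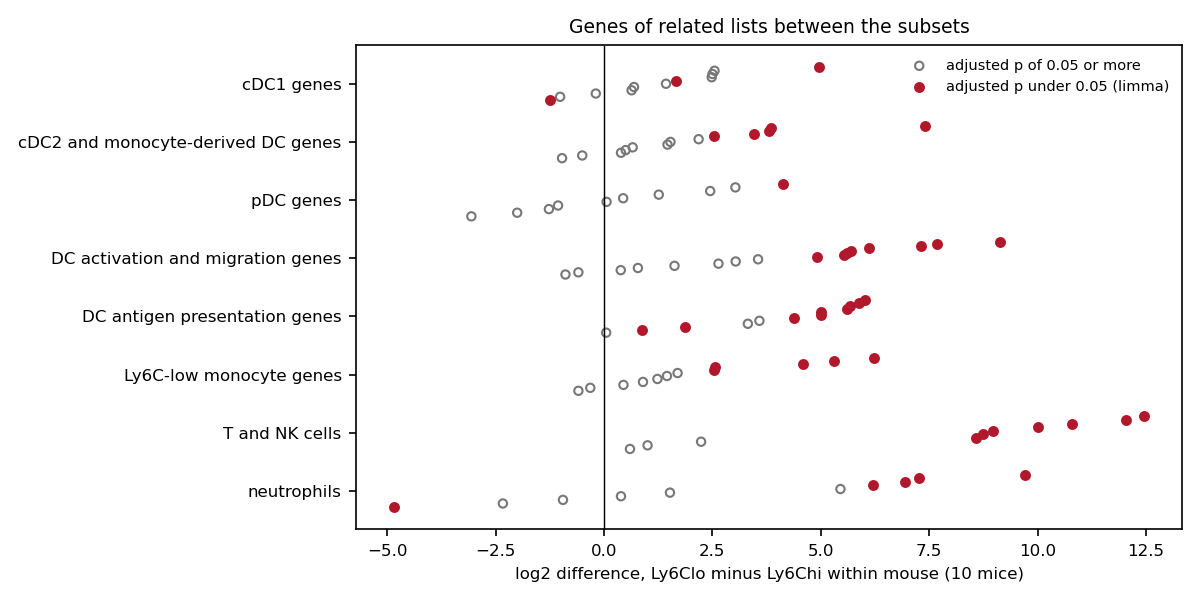
Mean within-mouse log2 difference, Ly6Clo minus Ly6Chi, of each tested gene of 8 lists that is not one of the 10 genes (n = 10 mice), filled where the limma adjusted p was under 0.05. Past the threshold were 9 of 12 presentation genes, 8 of 16 activation genes and 7 of 10 T and NK cell genes, all of them higher in Ly6Clo MoMac.

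Genes linked to CD11c itself were measured too. *Itgb2*, the beta chain that pairs with CD11c, had 31647 normalized counts in Ly6Clo and 13799.8 in Ly6Chi MoMac, with a log2 difference of 1.08 (adjusted p = 0.00191, limma). *Itgam*, which encodes CD11b and lies beside *Itgax*, had means of 2118 in Ly6Clo and 1680.3 in Ly6Chi MoMac without a difference past the threshold. *Itgad*, the other neighbour, did not exceed 17.5 normalized counts in any library. Ly6C-low monocyte genes were higher in 5 of 12, *Eno3* (9609.5 against 233), *Treml4* (5814 against 1042), *Ace* (702 against 43.9), *Cd36* (3703 against 145) and *Ear2* (5801 against 925). *Ear2* stands in both lists and is counted among the cDC2 genes above as well. *Nr4a1*, the transcription factor of Ly6C-low monocytes, had means of 9321 in Ly6Clo and 9880.1 in Ly6Chi MoMac. Of the receptors for growth factors of dendritic cells, *Kit* (69.6 against 0) was higher, and *Csf2ra* and *Csf2rb* did not pass, whereas edgeR placed 0 genes of this list past the threshold.

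The sort markers and the markers of other cells moved with the subset as follows. *Ly6c2* was lower in Ly6Clo (688) than in Ly6Chi MoMac (7403), as was *Ly6c1* (15.5 against 141) (adjusted p = 1.43e-07 and 0.0013, limma). *Itgam* and *Adgre1*, which encode the positive markers CD11b and F4/80, were present in every Ly6Clo library, although *Itgam* was at 2.09 normalized counts in that of mouse 13. In the T and NK cell list 7 of 10 genes were higher in Ly6Clo MoMac, and its summed level lay between 43257 and 97957 there and between 0 and 812 in Ly6Chi MoMac. *Prf1*, the pore protein of cytotoxic cells, was at 4819 ± 2159 (SD, n = 10) against 0, *Ncr1*, an NK cell receptor, at 1802 against 4.25, and *Gzma*, a granule protease, at 24663 against 34.0. *Cd3e*, which defines T cells, did not exceed 11.1 in any library, and *Cd4* was at 0 in Ly6Clo MoMac. Other T cell genes were above 0 in some libraries, with *Cd3g* in 5, *Cd3d* in 6 and *Cd8a* in 2 of the 10 Ly6Clo libraries, up to 226, 119.5 and 73.7, and *Cd3d* up to 139.7 in Ly6Chi MoMac. Among neutrophil genes 4 of 10 were higher (*Retnlg*, *Cxcr2*, *Ngp* and *Camp*) and *Mmp8* was lower, with sums of 10612 to 133307 in Ly6Clo and 9154 to 15701 in Ly6Chi MoMac. One gene each of the B cell (*Cd79a*), Kupffer cell (*Marco*) and endothelial and stellate cell (*Clec4g*) lists was higher, and 2 hepatocyte genes, *Apoa1* and *Apoa2*. In the macrophage list *C1qa* and *C1qb* were higher and *Cd14* was lower. With edgeR 0 genes of the macrophage and of the endothelial and stellate cell lists passed, and without mouse 11 or mouse 19 none of the macrophage genes did. The call of *Marco* was lost with a pseudocount of 10, without a filter, with edgeR without mouse 15, and without any 1 of mice 11, 14, 15, 17, 18, 19 and 20. Without the Ly6Clo library of mouse 13, 0 macrophage genes were lower and 2 endothelial and stellate cell genes were higher. The part of these other cells in the levels of *Itgax*, *Cd209a* and *Ccr7* was not tested.

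The genes most like *Itgax* were sought by correlation of log2 values over all 20 libraries, among 5813 named genes with a mean of at least 100. The most like was *F2r*, a thrombin receptor (r = 0.98), which was at 0 in all Ly6Chi libraries and also in the Ly6Clo library of mouse 12. It was followed by *Sla2* (r = 0.96), *Pdgfb* (r = 0.93), *Prss34* (r = 0.93), *Klra8* (r = 0.92), *Txk* (r = 0.92), *Prf1* (r = 0.92), *Pdcd1lg2* (r = 0.91), *Klrc1* (r = 0.91) and *Klrg1* (r = 0.90). The step between the subsets enters these values, since it is shared by all 20 libraries. With the mean of each of the 4 groups removed, r stayed at 0.96 for *F2r*, 0.84 for *Sla2* and between 0.71 and 0.77 for *Pdgfb*, *Prss34*, *Klra8* and *Pdcd1lg2*, and was 0.40 for *Txk*, 0.27 for *Prf1*, 0.15 for *Klrc1* and 0.10 for *Klrg1*. These values rested on the Ly6Clo library of mouse 12, in which *F2r*, *Sla2*, *Pdgfb*, *Prss34* and *Pdcd1lg2* were at 0 as *Itgax* was. Without that library, and with the group means removed, r was 0.54 for *F2r*, -0.37 for *Sla2* and between -0.52 and 0.28 for the other 8 genes. The Ly6Clo library of mouse 12, where *Itgax* was at 0, still held 2275 normalized counts of *Prf1* and 1409.9 of *Klrg1*.

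Within the 10 Ly6Clo libraries, no relation of *Itgax* with another of the dendritic cell genes passed the threshold. In 26 relations examined after the values had been seen (with the other 9 genes, Ly6C-low monocyte genes, integrins, *Csf1r* and the summed T and NK cell and neutrophil lists), 0 Pearson correlations and 1 Spearman correlation passed an adjusted p of 0.05 in a permutation test. That was with *Csf1r*, the receptor for macrophage colony-stimulating factor (rho = 0.93, permutation p = 0.00031, adjusted p = 0.00806), for which Pearson's r was 0.55 (permutation p = 0.0979, adjusted p = 0.402). Leaving out mice 12 and 17, whose *Itgax* lay farthest from the median, r was 0.75 over 8 libraries, and with treatment means removed r was 0.42 and rho 0.61. Detection moved with this relation, since *Csf1r* was lowest in the Ly6Clo libraries of mice 13, 12 and 14 (874, 1770 and 2384 normalized counts), which had the fewest genes detected (5343, 10379 and 9788), and its part was not tested. *Cd209a* ran the other way (rho = -0.72, permutation p = 0.024, adjusted p = 0.0779, r = -0.52, permutation p = 0.115, adjusted p = 0.402), and r was -0.79 without mice 12 and 17. With treatment means removed, r was -0.39 and rho -0.48 for *Cd209a*. The library with the most *Cd209a* was that of mouse 12, which had no *Itgax*, and the library with the least was that of mouse 20, second highest in *Itgax*. With the summed T and NK cell genes, rho was -0.32 (permutation p = 0.368, adjusted p = 0.563), r was 0.42 (permutation p = 0.204, adjusted p = 0.448), and r was -0.57 without mice 12 and 17. With treatment means removed, r was 0.38 and rho 0.091 for this sum.

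*Ccr7* was set beside the activation and migration genes in the same 10 libraries. *Cacnb3*, a calcium channel subunit, fell into separate clusters, so that no pooled coefficient is given. It was at 0 in the libraries of mice 13, 14, 15, 17 and 19, where *Ccr7* lay between 546 and 1709 normalized counts. It lay between 58.4 and 197 in mice 11, 12, 16, 18 and 20, in which *Ccr7* lay between 2425 and 10438. The groups of libraries formed by *Cacnb3* thus did not overlap in *Ccr7*, a pattern noticed in these values, and the split into these groups was not tested. Of the 18 relations examined, 1 Pearson and 0 Spearman correlations passed an adjusted p of 0.05 in a permutation test. That was with *Cacnb3* (Pearson permutation p = 0.00277, adjusted p = 0.0499, Spearman permutation p = 0.0121, adjusted p = 0.121), and the clusters enter these values. *Cd83* ran with *Ccr7* (r = 0.72, permutation p = 0.0208, adjusted p = 0.187, rho = 0.72, permutation p = 0.0232, adjusted p = 0.121), and r was 0.53 without mice 18 and 19, short of the threshold after adjustment over the 18 relations examined. The summed neutrophil genes had the same rho with *Ccr7* (rho = 0.72, permutation p = 0.0238, adjusted p = 0.121, r = 0.47, permutation p = 0.172, adjusted p = 0.359), and r was 0.42 without mice 18 and 19. *Marcksl1* was near these (rho = 0.71, permutation p = 0.0269, adjusted p = 0.121, r = 0.46, permutation p = 0.179, adjusted p = 0.359), with an r of 0.50 without both mice. For *Fscn1* rho was 0.66 (permutation p = 0.0446, adjusted p = 0.129) and r was 0.52, or 0.17 without both mice. For *Ccl22* rho was 0.65 (permutation p = 0.0493, adjusted p = 0.129) and r was 0.39, or 0.24 without both mice. *Cd86* ran the other way (r = -0.64, permutation p = 0.0405, adjusted p = 0.243, rho = -0.56, permutation p = 0.0973, adjusted p = 0.175), with an r of -0.48 without both mice. The part of neutrophil RNA in the relation of *Cd83* with *Ccr7* was not tested.

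**Figure D3:**
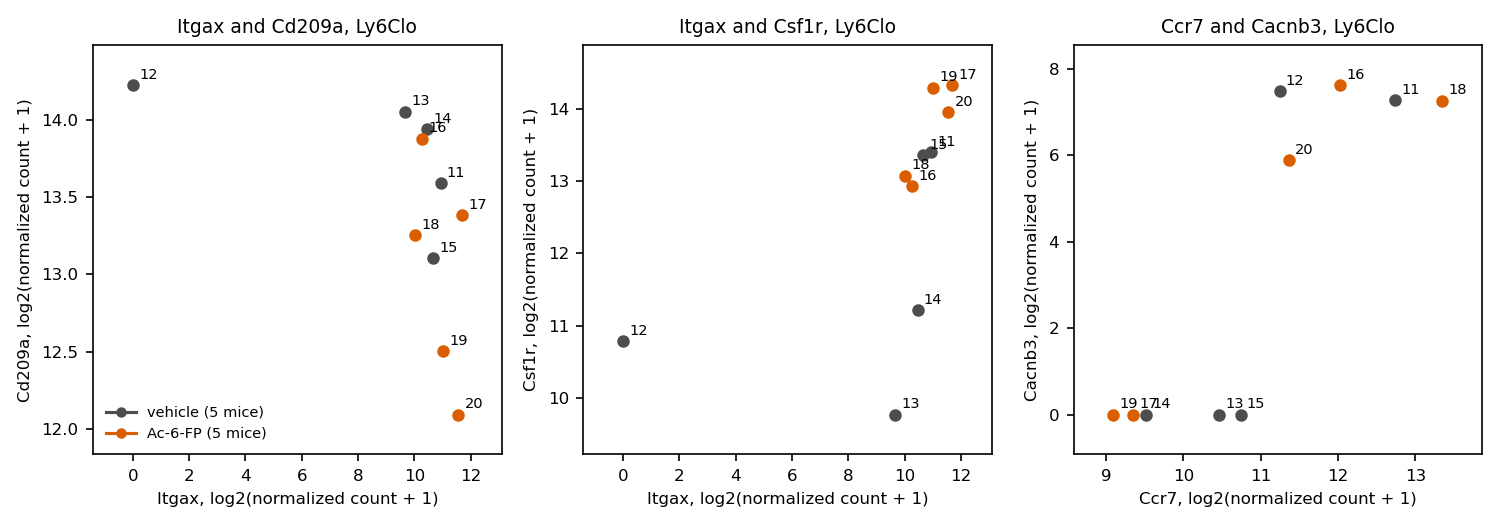
Levels in the 10 Ly6Clo libraries on log2(normalized count + 1) axes, each point 1 mouse with its number, vehicle in grey and Ac-6-FP in orange: *Cd209a* and *Csf1r* against *Itgax*, and *Cacnb3* against *Ccr7*. Mouse 12 has no *Itgax* and the most *Cd209a*, and the 5 mice with *Cacnb3* have the 5 highest levels of *Ccr7*.

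The study asked how MAIT cell inhibition by Ac-6-FP alters each MoMac subset, and the 10 genes were compared between 5 Ac-6-FP and 5 vehicle mice within each. None of them passed the threshold in either subset (0 of 10 in Ly6Chi and 0 of 10 in Ly6Clo MoMac, limma), where 0.0754% and 0.0522% of all genes tested did. At an unadjusted p under 0.05 they numbered 2 in Ly6Chi (8.73% of all genes) and 0 in Ly6Clo MoMac (9.31%). With edgeR they numbered 2 and 1, beside 1541 and 1614 of all 17248 genes, with 0 of the 10 after adjustment. No gene had groups without overlap, as 1.35% and 1.5% of all genes did. Changes are given only where at least 3 libraries of each group held more than 3 reads, which was true of 3 genes in Ly6Chi and 8 in Ly6Clo MoMac. They are read against the median change of all genes tested, 0.35 in Ly6Chi and 0.91 in Ly6Clo MoMac on the log2 scale. These medians moved with the setting. The Ly6Clo median was 0.34 without the Ly6Clo library of mouse 13, 0.29 with edgeR and 0.058 with genes detected as a covariate. The Ly6Chi median was 0.10 with edgeR and 0.011 with the covariate.

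In Ly6Clo MoMac, *Cd209a* had a mean of 14605 ± 4067 (SD, n = 5) with vehicle and 9135 ± 4232 (SD, n = 5) with Ac-6-FP. Its log2 change was -0.76 (standard error 0.35, adjusted p = 0.542 with limma, two-sided exact permutation p = 0.0794, where 5 against 5 allow no less than 0.00794), and -0.45 with genes detected as a covariate. The 3 lowest of the 10 libraries were those of mice 20, 19 and 15, the last a vehicle mouse, so that the groups overlapped. *Itgax* had a mean of 1156 ± 768 (SD, n = 5) with vehicle and 2125 ± 1018 (SD, n = 5) with Ac-6-FP, a log2 change of 2.56 (standard error 1.96, adjusted p = 0.613, exact permutation p = 0.167). Without mouse 12, the vehicle mouse with no *Itgax*, this change was 0.48, so that 1 library decided its size. The log2 change of *Flt3* was -0.58 (standard error 0.47, adjusted p = 0.613, exact permutation p = 0.206), and -0.25 without mouse 18.

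*Ccr7* and *Clec10a* in Ly6Clo MoMac had log2 changes of 0.10 (standard error 0.90) and -0.15 (standard error 0.60), both below the median of all genes in that fit. The changes of these genes were -0.025 and -0.54 without the Ly6Clo library of mouse 13, against a median of 0.34. With edgeR they were 0.42 and -0.37, against a median of 0.29. The log2 change of *Batf3* was 1.96 (standard error 1.62), and 0.28 without mouse 13, whose library held none. It was 1.68 (standard error 1.39) for *Clec9a* and 1.61 (standard error 2.05) for *Siglech*, and 0.97 and 0.64 without the Ly6Clo library of mouse 13. For *Siglech* it was 0.64 without mouse 14 too, 0.37 with edgeR and 0.036 with genes detected as a covariate. These differences were within the spread between mice, with exact permutation p from 0.238 to 0.921. *Xcr1* was above 3 reads in 4 Ac-6-FP and 2 vehicle libraries, and *Zbtb46* in 2 and 0. The range of genes detected was 11156 to 15766 in the Ac-6-FP and 5343 to 15723 in the vehicle libraries of this subset, and the part of this difference in the changes was not tested apart from the covariate fit. The summed T and NK cell genes ranged from 50174 to 97957 with Ac-6-FP and from 43257 to 72744 with vehicle, and their part was not tested.

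In Ly6Chi MoMac the log2 change was 0.77 (standard error 0.70, adjusted p = 0.687, exact permutation p = 0.389) for *Batf3*, -0.92 (standard error 2.11, adjusted p = 0.945, exact permutation p = 0.603) for *Cd209a* and 1.38 (standard error 1.67, adjusted p = 0.781, exact permutation p = 0.865) for *Clec10a*. The means of *Clec10a* were nearly equal, at 354 with vehicle and 341 with Ac-6-FP, and without mouse 12, which held none, the change was -0.36. Without mouse 12 the change of *Batf3* was 0.16, and without mouse 18 that of *Cd209a* was 0.47. With genes detected as a covariate, the change of *Cd209a* was -3.41. *Siglech* was at 186, 72.85, 330, 101.4 and 0 normalized counts in Ac-6-FP mice 16 to 20 and at 7.08, 0, 0, 25.1 and 0 in vehicle mice 11 to 15. The 4 highest Ly6Chi libraries for *Siglech* were thus those of 4 Ac-6-FP mice, but the groups overlapped at 0 and the difference did not pass (adjusted p = 0.553, limma, unadjusted 0.0422, exact permutation p = 0.0714). *Clec9a* was at 0 in all 5 vehicle libraries and at 13.9, 27.4 and 18.05 in Ac-6-FP mice 17, 18 and 19 (adjusted p = 0.543, limma, unadjusted 0.0308, exact permutation p = 0.167). *Itgax* was at 0 in the libraries of both treatments. The Ly6Chi vehicle libraries had 9017 to 14606 genes detected and 42 to 870 of the 6652 genes with a median of at least 100 at 0, against 11096 to 15587 and 28 to 293 with Ac-6-FP, and the part of this difference in the values of *Siglech* and *Clec9a* was not tested.

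**Figure D4:**
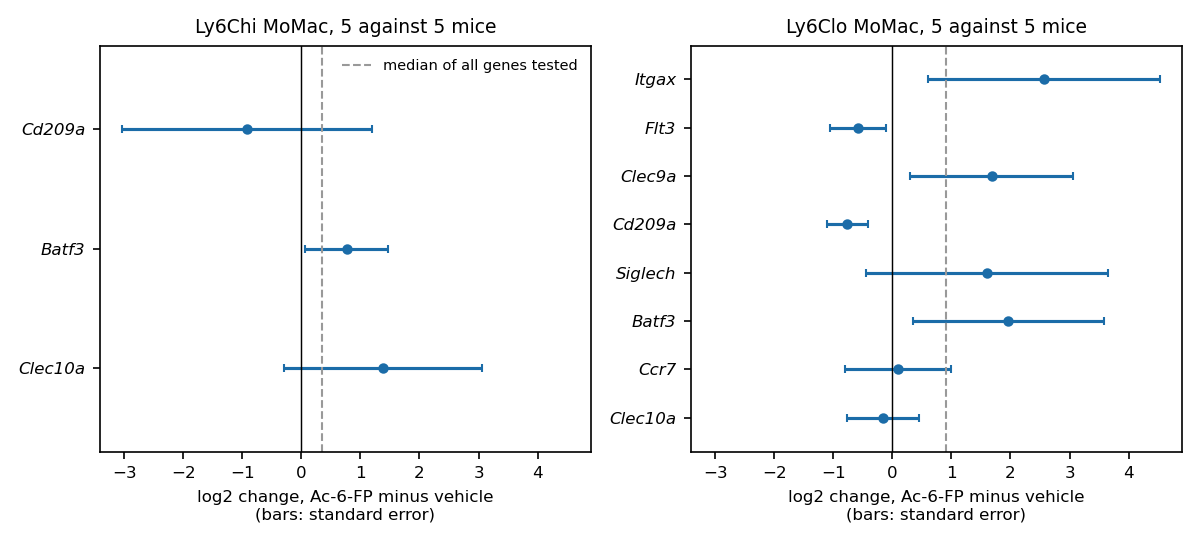
Log2 change with Ac-6-FP (Ac-6-FP minus vehicle, 5 against 5 mice) of the genes with enough reads in each subset, as points with the standard error, and the median change of all genes tested as a dashed line at 0.35 for Ly6Chi and 0.91 for Ly6Clo. The changes of *Flt3*, *Cd209a* and *Clec10a* in Ly6Clo MoMac lie below 0, and no gene passed the threshold.

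Whether the change with Ac-6-FP differed between the subsets was tested on the within-mouse differences, 5 against 5 mice. Among all genes 0 passed (0%, limma), 840 (4.87%) had an unadjusted p under 0.05, and edgeR also placed 0 genes past the threshold and 313 under an unadjusted p of 0.05. Of the 10 dendritic cell genes 0 passed and 1, *Zbtb46*, had an unadjusted p under 0.05. The difference of the changes, Ly6Clo minus Ly6Chi, was 1.19 (standard error 1.88, adjusted p = 0.897) for *Batf3*, 0.16 (standard error 1.99, adjusted p = 0.992) for *Cd209a* and -1.54 (standard error 1.79, adjusted p = 0.851) for *Clec10a*, all with limma. That of *Batf3* was -0.86 without the Ly6Clo library of mouse 13, and that of *Clec10a* 0.42 without mouse 12. The study's own criterion compares ratios of the 5 Ac-6-FP mice to the vehicle mean, with a paired test at an unadjusted p of at most 0.05 and a fold of at least 1.5, and does not count the spread between vehicle mice. Applied here to the 17248 genes tested, it was met by 5 of the 10 genes (*Batf3*, *Clec10a*, *Zbtb46*, *Siglech* and *Itgax*) and by 24.3% of all genes tested. The study chose expressed genes by an intergenic background instead. The genes that met the criterion here thus need not be those of its published list.

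The other dendritic cell lists were compared between the treatments in the same way. In the cDC1, cDC2, pDC, activation and presentation lists 0 genes passed in either subset or in the difference of the changes. *Clnk* (unadjusted p = 0.0182) and *Irf8* (unadjusted p = 0.0437) had an unadjusted p under 0.05 in Ly6Clo MoMac among 11 cDC1 genes, both with a positive change, and adjusted p-values above 0.05 (limma). In Ly6Chi MoMac 2 of these 11 were under an unadjusted p of 0.05 as well, *Irf8* with a log2 change of 1.34 (unadjusted p = 0.00631, adjusted p = 0.397, limma) and *Ifi205* with one of -0.89 (unadjusted p = 0.0216, adjusted p = 0.543, limma). The log2 change of *Cd74* was -0.73 in Ly6Chi (unadjusted p = 0.012, limma) and -0.20 in Ly6Clo MoMac (unadjusted p = 0.453, limma), neither of which passed after adjustment. Among the 12 presentation genes 3 had an unadjusted p under 0.05 in Ly6Chi MoMac, and the others were *H2-DMb1* with a log2 change of -0.54 (unadjusted p = 0.0409, adjusted p = 0.547, limma) and *Dpp4* with one of 4.61 (unadjusted p = 0.0264, adjusted p = 0.543, limma). In Ly6Clo MoMac it was *Plbd1* (0.94, unadjusted p = 0.0151, limma). Of the other lists, *Notch2* (3.59, unadjusted p = 0.00033), *Cox6a2* (4.03, unadjusted p = 0.00575), *Ly6d* (4.95, unadjusted p = 0.0215) and *Cd86* (-1.05, unadjusted p = 0.0177) were under 0.05 in Ly6Chi MoMac (limma). None of these passed after adjustment.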

How the data were processed

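RNA of Ly6Chi and Ly6Clo MoMac from 10 mice was sequenced by the authors (75 bases, STAR 2.4.0, mm10, FAST DB constitutive gene regions). The deposited values are signal values, made by the authors by dividing counts by 1 DESeq2 size factor per library, and are called normalized counts. All values above 0 (100%, tolerance 0.006) are whole multiples of 1 step per library, which gave the reads. The 10 genes, the lists and the tests were chosen with earlier results of these data known. Limma 3.58.1 (R 4.3.3) was run on log2(normalized count + 1) for 17248 genes with a mean of at least 10 in 1 of 4 groups, with Benjamini-Hochberg adjustment and a threshold of 0.05, two-sided. Fold changes on this scale are understated for low genes. Subsets and the difference of the changes were compared on within-mouse differences, since the labels and methods give both libraries of a number to 1 mouse, although residuals of the same mouse correlated with a median of 0.03 (between mice -0.0032, 3 of 10 best with their own). Exact permutation tests, and 100000 permutations for correlations, used scipy 1.17.1. Named were the 10 genes, list genes past the threshold or of the highest means, and the 10 genes most correlated with *Itgax*. Others were chosen after their values were seen, and a gene of the lists is not reported here. The fits were run on simulated counts drawn without a shared effect of each mouse, and the outcome is not given here. Alternatives were pseudocounts of 0.1 and 10, no filter, a filter of 100, edgeR 4.0.16 on the recovered reads, genes detected as covariate, leaving out each mouse or the Ly6Clo library of mouse 13, no pairing, the study's criterion and, chosen after seeing the data, edgeR without mouse 15, the list counts under each setting, and correlations without the Ly6Clo library of mouse 12.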

Additional observations from a re-analysis of the deposited data

Results flagged for a closer look

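Single libraries lay far from the other 4 of their group (Dixon's 95% limit of 0.71 for 5 samples) in 11 cases among 35 combinations of gene and group that held any variation, where chance alone would mark about 1 in 20 groups of normally distributed values. That rate does not hold for groups mostly at 0, in which 1 positive library stands apart by construction. All were a highest library. In Ly6Chi MoMac they were mostly values in groups otherwise at or near 0, namely *Flt3* at 57.53 in vehicle mouse 11 and 79.73 in Ac-6-FP mouse 20, *Zbtb46* at 124.71 in mouse 14, *Xcr1* at 241.92 in vehicle mouse 12 and 22.35 in Ac-6-FP mouse 20, *Siglech* at 25.13 in mouse 14, and *Ccr7* at 35.4 in vehicle mouse 11 and 9.82 in Ac-6-FP mouse 17. In Ly6Clo MoMac they were *Siglech* at 332.01 in vehicle mouse 11 and 416 in Ac-6-FP mouse 18, and *Ccr7* at 6839.7 in vehicle mouse 11, against 2425 in the next library of that group.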

How the results depend on the processing

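The number of genes past the threshold was 13 for Ac-6-FP in Ly6Chi, 9 in Ly6Clo, 0 for the difference of the changes and 896 between the subsets. In Ly6Chi MoMac it was 0 with edgeR, 0 with edgeR without mouse 15, 4 with a filter of 100, 0 with genes detected as covariate and 5 without a filter. In Ly6Clo MoMac it was 0 with edgeR, 0 without mouse 15 too, 2 with a filter of 100, 2 with the covariate, 2 without a filter, 2 with a pseudocount of 10 and 2 without the Ly6Clo library of mouse 13. For the difference of the changes it was 2 with a filter of 100 and 3 without pairing by mouse (no replicate block). With the study's criterion, whose construction leaves out the spread between vehicle mice, it was 4185 of the 17248 genes tested here. Between the subsets it was 584 with edgeR, 467 without mouse 15 too and 1702 with the covariate. Leaving out 1 mouse gave 0 to 133, 0 to 103, 0 to 0 and 673 to 1161. Except for the study's criterion, which was computed apart, none of the changes given for the 10 genes passed the threshold under any setting run.
Without 1 mouse, these changes ranged from -2.53 to 0.47 for *Cd209a* and -0.36 to 1.97 for *Clec10a* in Ly6Chi, and from -0.48 to 0.58 for *Ccr7* and -0.54 to 0.21 for *Clec10a* in Ly6Clo MoMac. The difference of the changes ranged from -1.28 to 1.88 for *Cd209a*, -0.86 to 2.15 for *Batf3* and -2.26 to 0.42 for *Clec10a*. Counted together with the differences between the subsets, of which none turned, directions turned in 15 of 240 values without 1 mouse and in 8 of 199 others. The latter were *Clec10a* in Ly6Chi with edgeR (-0.042) and edgeR without mouse 15 (-0.014), *Batf3* (-0.056) and *Ccr7* (-0.066) in Ly6Clo with the covariate, *Ccr7* without the Ly6Clo library of mouse 13 (-0.025), and for the difference of the changes *Cd209a* with edgeR without mouse 15 (-0.39) and *Batf3* with edgeR (-0.088) and without the Ly6Clo library of mouse 13 (-0.86). The cause was not tested. The change of *Cd209a* in Ly6Clo MoMac lay between -0.97 and -0.53 without 1 mouse and was -0.45 with the covariate, which in Ly6Chi MoMac gave -3.41. A value of 0 allows up to 3 reads.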

Other observations

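Among the 39 genes at 0 in every Ly6Chi library and present in at least 9 Ly6Clo libraries, looked at after their values were seen, 4 exceeded *Itgax* (1640.3 normalized counts) in Ly6Clo mean. They were *Ccr3*, a chemokine receptor of eosinophils and basophils (5982), *Prf1* (4819), and the NK cell receptors *Klra7* (2267) and *Klrg1* (1773.5). *Cpa3*, a mast cell and basophil protease (1448), *Txk* (1223) and *Fasl* (1115), the ligand of a death receptor, followed *Itgax*. *Prg2*, an eosinophil granule protein (769), *Cd200r3* (647) and *Ms4a2* (609.6), a chain of the IgE receptor of basophils and mast cells, belong to the same group of genes.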
